A study of Callithrix jacchus with 20 samples.

Results

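A set of 10 genes that regulate mesoderm and mesenchyme was followed through the in vitro induction of marmoset primordial germ cell-like cells (cjPGCLCs): the receptors PDGFRA and KDR, and the transcription factors TWIST1, SNAI1, SNAI2, HAND2, MEIS1, FOXF1, FOXC1 and FOXC2. They were chosen by symbol, and all 10 were found among the 25102 genes of the count tables. RNA-seq was available for 20 libraries of 10 conditions, with 2 biological replicates in each. All cells came from 1 line of marmoset (Callithrix jacchus) induced pluripotent stem cells, DPZ_cjiPSC2, made from foetal fibroblasts, so the replicates are samples of a single line.

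The cjiPSCs were kept in TESR, a commercial stem cell medium, or in cjPSCM, a medium made for marmoset cells. From each of these cultures, precursors of mesendoderm (pre-ME) were induced with the WNT pathway agonist CHIR, with activin A (pre-ME + ActA) or without it (pre-ME - ActA). Embryoid bodies were then grown from pre-ME derived in cjPSCM, with BMP4, LIF, SCF and EGF, and were sorted on day 4 into cjPGCLCs and marker-negative somatic cells. The study also grew day 4 embryoid bodies from TESR cultures and stained them, but no RNA-seq of such cells was available. The titles of the 8 day 4 samples write the medium as cjEPSCM and those of the earlier samples as cjPSCM, which are taken here as 1 medium, since the study's text names only cjPSCM for the marmoset cells. The titles of the samples name INTa6 and EpCAM as the sort markers, their characteristics name CXCR4 and EpCAM, and the study's text names CXCR4 and INTα6, so which pair was used is uncertain.

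As background, mesoderm forms in the primitive streak, where epiblast cells lose epithelial contacts under control of the SNAI repressors and TWIST1. PDGFRA marks early mesoderm and mesenchyme and binds platelet-derived growth factors. KDR is the main receptor for vascular endothelial growth factors and marks precursors of blood, vessels and heart. HAND2 and FOXF1 are active in lateral plate mesoderm, FOXC1 and FOXC2 in paraxial mesoderm and vessels, and MEIS1 is a homeodomain partner of HOX and PBX proteins. In primate embryos, extraembryonic mesenchyme and amnion also express several of these genes, so none of them alone names a cell type.

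Libraries held 4784964 to 22067099 reads on genes (median 11599813), and 3 counts corresponded to 1.40 to 6.92 normalised counts, which covers counting error only. The 4 libraries of pre-ME from TESR held 18858625 to 22067099 reads on genes, against 8193936 to 17491325 in pre-ME from cjPSCM. The sample numbers of these 4 TESR libraries also stand apart from all others. Whether they were made separately is not stated. Where they are compared with other conditions, such an effect cannot be told apart from medium or stage. Levels are counts divided by the size factor of the library, and they are compared between conditions but not between genes, since they are not scaled by gene length. The transcripts of the sort markers differed as labelled. CXCR4, ITGA6 (which encodes INTα6) and EPCAM were all 3 higher in cjPGCLCs than in somatic cells under both protocols. So were 4 of 6 germ cell markers (DPPA3, NANOS3, SOX17 and TFAP2C), at the thresholds given below. PRDM1 was also higher, without overlap of libraries but short of the fold threshold. Its means were 209 against 90.3 normalised counts with ActA and 283 against 92.1 without it. KIT was at means of 866 against 1202 with ActA and 1036 against 857 without it. Markers of definitive endoderm moved with the sort as well. FOXA2 and APOA1 were higher in cjPGCLCs under both protocols. The summed level of this list was 759 to 1623 in cjPGCLCs from pre-ME + ActA and 2402 to 3809 in those from pre-ME - ActA, against 140 to 214 in somatic cells. In both somatic groups 4 of the 6 endoderm markers lay at or under 3 counts, FOXA2 with a mean of 0 normalised counts in those from pre-ME + ActA and 2.31 in those from pre-ME - ActA.

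Several of the 10 genes showed a step between pre-ME and day 4, which both sorted populations shared. For 6 of the 10 genes (PDGFRA, TWIST1, SNAI2, SNAI1, HAND2 and MEIS1), the lowest of the 8 day 4 libraries lay above the highest of the 12 libraries of cjiPSCs and pre-ME, as was the case for 8.02% of the 15797 genes tested. For 0 of the 10 did all day 4 libraries lie below all earlier ones, against 8.65% of the genes tested. In these bulk libraries, more cells that express a gene and more RNA of it per cell cannot be told apart.

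**Figure D1:**
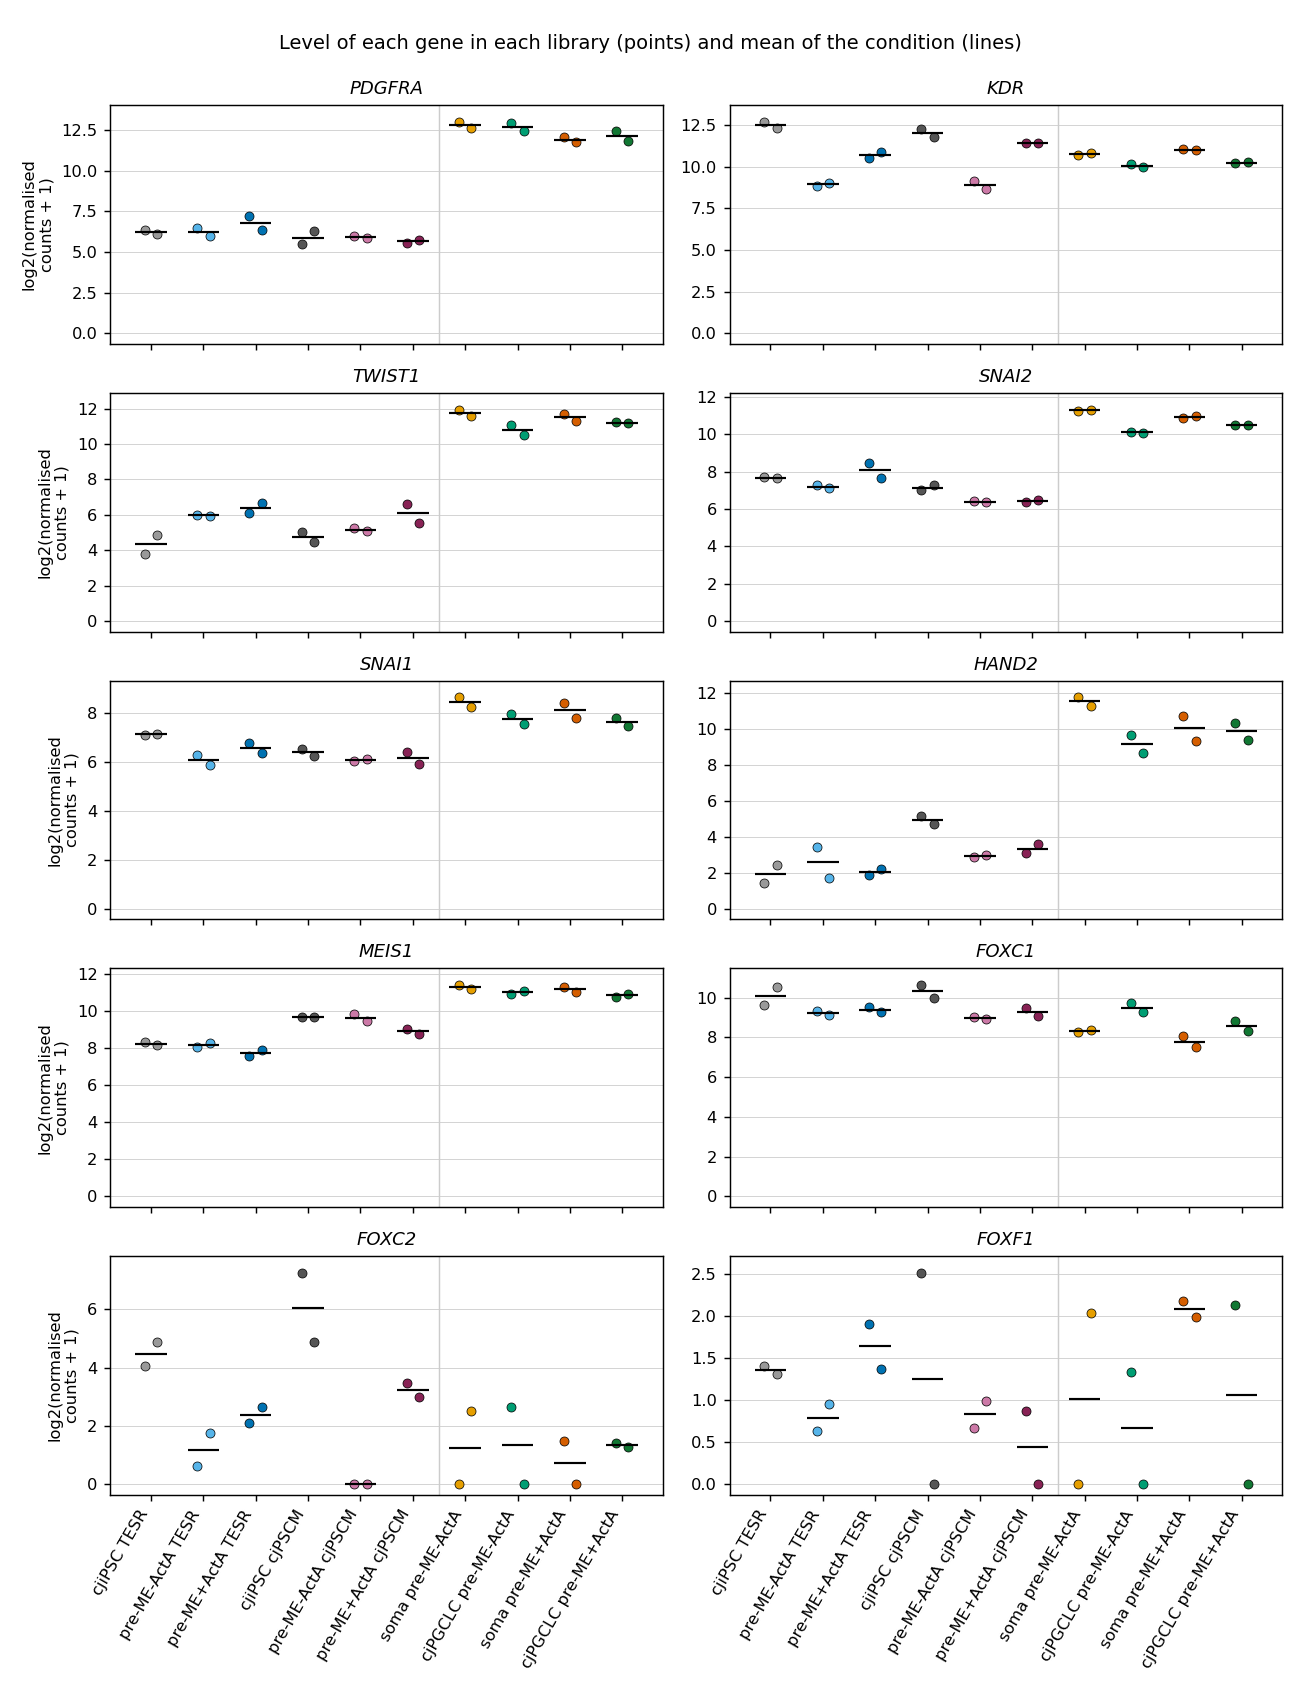
Level of the 10 genes in each library as log2(normalised counts + 1) on the vertical axis, with a point for each of the 2 replicates and a line for the mean of each of the 10 conditions on the horizontal axis; the grey vertical line separates cjiPSCs and pre-ME from day 4 cells. PDGFRA, TWIST1, SNAI2, SNAI1, HAND2 and MEIS1 lie higher in all 8 day 4 libraries than in the other 12, KDR is highest in cjiPSCs, and FOXF1 stays at 5 counts or fewer in every library.

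The first question was how the genes responded when pluripotent cells were moved to pre-ME. A gene was called at the thresholds of the study, an adjusted p under 0.05 (edgeR's quasi-likelihood test, Benjamini-Hochberg adjustment over 15797 genes) and a log2 fold change beyond 2. FOXF1 was too low to be tested, so 9 of the 10 genes could be called. The clearest response was a fall of KDR that was larger without ActA.

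KDR stood at 6555 and 5182 normalised counts in cjiPSCs in TESR and at 4981 and 3558 in cjPSCM. It lay at 454 and 527 in pre-ME - ActA from TESR cultures and at 558 and 397 in those from cjPSCM cultures. With ActA the levels were 1451 and 1866 from TESR cultures and 2688 and 2788 from cjPSCM cultures. The order was thus cjiPSCs, then pre-ME + ActA, then pre-ME - ActA in both media, with no overlap between these 3 stages of a medium. Without ActA, KDR fell 11.9-fold from the cjiPSCs in TESR (log2 fold change -3.57, SE 0.20, edgeR adjusted p = 5.14e-09) and 8.71-fold from those in cjPSCM (-3.12, SE 0.20, edgeR adjusted p = 6.00e-08). With ActA the log2 differences from cjiPSCs were -1.82 (SE 0.19, edgeR adjusted p = 3.43e-06) and -0.63 (SE 0.19, edgeR adjusted p = 0.0273), which passed the test but not the fold threshold.

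Set directly against each other, pre-ME + ActA held 5.64 times as much KDR as pre-ME - ActA in cjPSCM cultures (log2 fold change 2.50, SE 0.20, edgeR adjusted p = 6.68e-07). In TESR cultures the log2 difference was 1.76 (SE 0.19, edgeR adjusted p = 1.45e-05), short of the fold threshold. The difference between these effects was 0.74 (SE 0.27, edgeR adjusted p = 0.188), so a dependence on medium was not established; with only the libraries of this comparison in the fit it passed (0.75, edgeR adjusted p = 0.0477). The 3 KDR calls held in each of the 20 fits that left out a library, and KDR in pre-ME + ActA over TESR cjiPSCs was called as well without pre-ME + ActA TESR replicate 2 (-2.01).

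**Figure D2:**
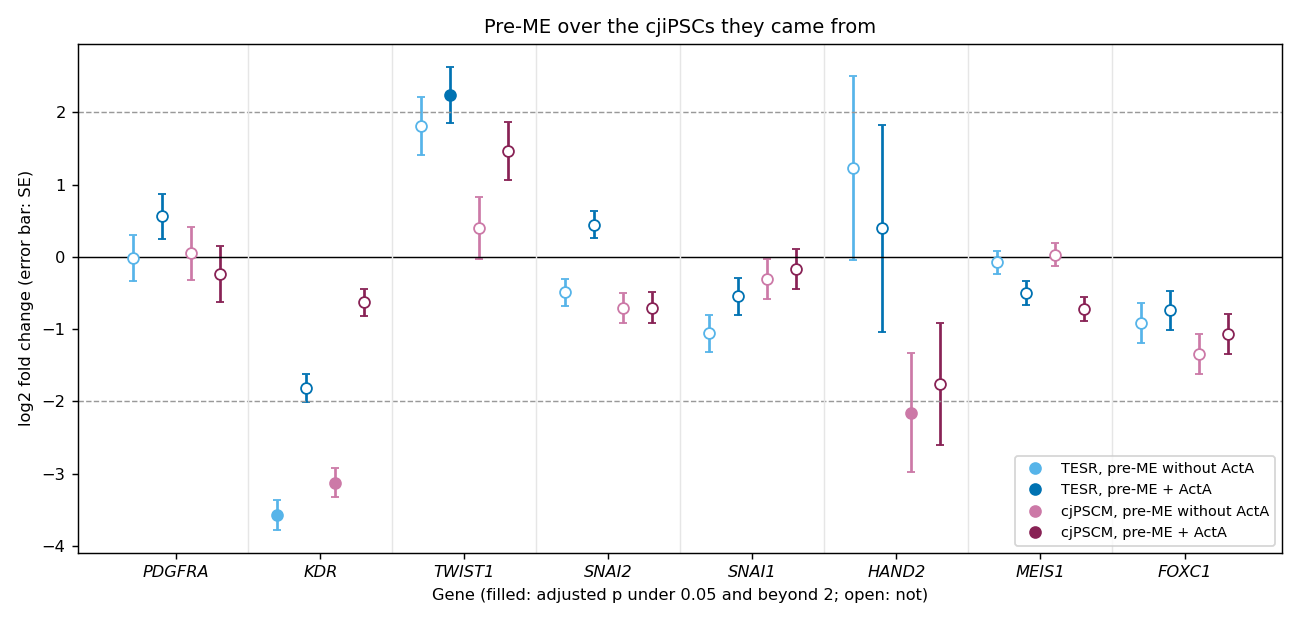
Log2 fold change of 8 genes in pre-ME over the cjiPSCs they came from, with SE as error bars, for the 4 combinations of medium and ActA; filled points pass both thresholds (dashed lines at 2 and -2) and open points do not. KDR lies at -3.57 and -3.12 without ActA and at -1.82 and -0.63 with it, while PDGFRA stays between -0.24 and 0.56.

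For PDGFRA no difference from cjiPSCs was called at this stage. It stood at 81.5 and 68.5 normalised counts in TESR cjiPSCs, at 145.6 and 79.6 in their pre-ME + ActA and at 87.8 and 63.6 in their pre-ME - ActA. In cjPSCM cultures the levels were 44.3 and 77.1 in cjiPSCs, 46.7 and 52.0 with ActA and 61.3 and 56.5 without it. Pre-ME overlapped with the cjiPSCs in each of the 4 comparisons, and none of them passed the test (edgeR adjusted p between 0.173 and 0.984). Between media, pre-ME + ActA from cjPSCM held less PDGFRA than that from TESR (log2 difference -1.21, SE 0.34, edgeR adjusted p = 0.0149).

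Among the regulators of epithelial to mesenchymal transition, TWIST1 was the one with a called rise in pre-ME. It stood at 12.7 and 28.3 normalised counts in TESR cjiPSCs, 63.1 and 60.8 in pre-ME - ActA and 67.3 and 99.3 in pre-ME + ActA. It rose 4.72-fold in the last of these (log2 fold change 2.24, SE 0.39, edgeR adjusted p = 0.000377). The call was lost without TESR cjiPSC replicate 1 (log2 fold change 1.59) or without pre-ME + ActA TESR replicate 2 (1.93), where the adjusted p still passed. Without ActA the log2 difference was 1.81 (SE 0.40, edgeR adjusted p = 0.00204), and it was called without TESR cjiPSC replicate 2 (2.27). In cjPSCM cultures, TWIST1 was at 32.0 and 20.8 in cjiPSCs, 37.1 and 32.7 without ActA and 97.6 and 46.3 with it (log2 difference of the last from cjiPSCs 1.47, SE 0.40, edgeR adjusted p = 0.0175).

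SNAI1 and SNAI2 showed no called difference among cjiPSCs and pre-ME. SNAI1 ranged from 57.1 to 141.5 normalised counts over these 12 libraries and was highest in both TESR cjiPSC libraries. The study names SNAI1 among the up-regulated genes in its comparison of TESR pre-ME with and without ActA. Here the means of SNAI1 were 94.8 with ActA and 66.7 without it, without overlap. These means lie well short of a log2 fold change of 2, so the difference was not called at the same thresholds. SNAI2, which encodes the repressor SLUG, was lower in cjPSCM cultures at each stage. It was at 208.2 and 202.5 in TESR cjiPSCs and at 129.0 and 152.7 in cjPSCM cjiPSCs. In pre-ME + ActA it was at 354.1 and 202.7 from TESR and at 83.4 and 87.1 from cjPSCM (log2 difference -1.72, SE 0.20, edgeR adjusted p = 1.45e-05), which reached the fold threshold without pre-ME + ActA TESR replicate 2 (-2.07) but not with it. No library overlapped between the media in any of these pairs.

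The forkhead gene FOXC1 was lower in all 4 kinds of pre-ME than in the cjiPSCs they came from, with log2 differences of -0.74 to -1.35 and edgeR adjusted p of 0.0013 to 0.0437, none beyond the fold threshold. Its levels were 795 to 1577 normalised counts in cjiPSCs and 477 to 725 in pre-ME. The paralogue FOXC2 was low in cjiPSCs and close to the detection limit in pre-ME. It stood at 28 and 19 counts in TESR cjiPSCs and 160 and 19 counts in cjPSCM cjiPSCs, or 15.4, 28.3, 150.7 and 28.2 normalised counts. In pre-ME it had 12 counts or fewer in each of the 8 libraries, and 0 in both libraries of pre-ME - ActA from cjPSCM.

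FOXC2 fell in all 4 transitions, and in pre-ME - ActA from cjPSCM its level was at least 37.7-fold lower than in cjiPSCs (against 3 counts per library), or at least 11.9-fold without cjPSCM cjiPSC replicate 1. The log2 fold changes of the other 3 were -2.21 (TESR, with ActA, SE 0.81, edgeR adjusted p = 0.0452), -3.67 (TESR, without ActA, SE 0.94, edgeR adjusted p = 0.00666) and -3.36 (cjPSCM, with ActA, SE 0.74, edgeR adjusted p = 0.00557). These calls rest on few counts. The first was lost in 12 of 20 fits that left out a library (edgeR adjusted p up to 0.201). The second was lost without pre-ME - ActA TESR replicate 1 (edgeR adjusted p = 0.0588), and the third without cjPSCM cjiPSC replicate 1 (log2 fold change -1.63) or either pre-ME + ActA library (edgeR adjusted p = 0.0649 and 0.0541).

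HAND2 had 3 counts in each TESR cjiPSC library and 37 and 17 in those in cjPSCM, or 1.65, 4.47, 34.9 and 25.2 normalised counts. In the 8 pre-ME libraries it stayed between 2.34 and 11.2 normalised counts. The fall from cjPSCM cjiPSCs to pre-ME - ActA (log2 fold change -2.16, SE 0.83, edgeR adjusted p = 0.0487) was lost in 11 of 20 fits that left out a library, each of its own 4 libraries among them (edgeR adjusted p from 0.0661 to 0.303).

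MEIS1 was higher in cjPSCM cultures than in TESR cultures at each stage. It stood at 318.4 and 287.4 normalised counts in TESR cjiPSCs against 808.2 and 813.8 in those in cjPSCM (log2 difference 1.39, SE 0.16, edgeR adjusted p = 5.94e-06). In pre-ME - ActA the levels were 266.6 and 306.4 from TESR against 921.4 and 692.5 from cjPSCM (1.5, SE 0.16, edgeR adjusted p = 5.98e-06). In pre-ME + ActA they were 189.9 and 236.7 against 529.0 and 441.0 (1.17, SE 0.16, edgeR adjusted p = 8.37e-05). All 6 libraries from cjPSCM cultures lay above the 6 from TESR, though none of the differences reached the fold threshold. With ActA the level was lower than without it in cjPSCM pre-ME (log2 difference -0.75, SE 0.16, edgeR adjusted p = 0.00458).

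Counted together against all genes, 2 of the 10 genes were called in pre-ME + ActA over cjiPSCs in TESR, where 6.96% of the genes tested were called, and 2 in pre-ME - ActA, against 7.86%. In cjPSCM cultures 1 was called with ActA, against 3.06%, and 3 without it, against 5.27%. Between the media, 2 were called in cjiPSCs, against 9.18%: HAND2, with a ratio of 12.9 (exact 95% counting interval 5.55 to 36.7), and FOXC2, whose libraries overlapped. Without TESR cjiPSC replicate 1 neither was called (edgeR adjusted p = 0.223 for HAND2 and 0.182 for FOXC2), nor without cjPSCM cjiPSC replicate 1 (0.108 and 0.665). The log2 difference of HAND2 was 3.57 with all libraries, 2.76 without the first of these and 3.27 without the second. Genes of blood and endothelium were also higher in cjPSCM cjiPSCs, 8 of 10 (ERG, EGFL7, TIE1 and CDH5 the most), with a summed level of 16110 to 29346 normalised counts against 2353 to 2589 in TESR. Their part in the levels of the members was not tested.

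For the effect of ActA on pre-ME, none of the 10 genes was called in TESR cultures by edgeR, against 2% of the genes tested. There 3 of them had an unadjusted p under 0.05, and DESeq2 called 0. In cjPSCM cultures KDR and FOXC2 were called, against 2.11%. FOXC2 was at least 3.59-fold higher with ActA (10.01 and 7.02 against 0 and 0 normalised counts), a call lost on leaving out any of its 4 libraries (edgeR adjusted p from 0.0591 to 0.182). Between the media none was called in pre-ME + ActA, against 4.12%, or in pre-ME - ActA, against 3.91%; 4 and 3 had an unadjusted p under 0.05, and DESeq2 called 0 in both.

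The second question was what changed from pre-ME to the sorted cells of day 4. HAND2, PDGFRA, TWIST1 and SNAI2 rose in all 4 comparisons, by 13.2-fold to 440-fold, in cjPGCLCs as well as in somatic cells. With these, 5 of the 10 genes were called in somatic cells from pre-ME + ActA, against 8.3% of the genes tested, and 5 in those from pre-ME - ActA, against 7.94%. In cjPGCLCs 4 were called with ActA, against 8.36%, and 4 without it, against 7.88%. The cjPGCLC and somatic comparisons of a protocol share the same 2 pre-ME libraries, so they are not independent of each other.

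**Figure D3:**
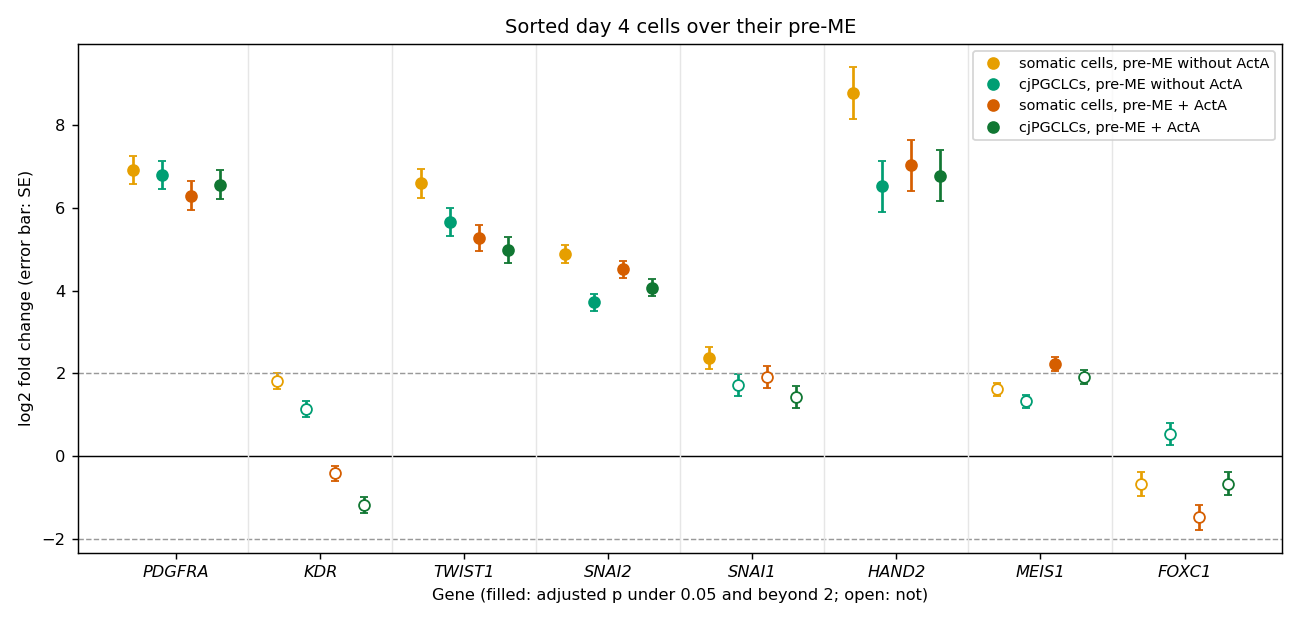
Log2 fold change of 8 genes in sorted day 4 cells over the pre-ME of the same protocol, with SE as error bars, for somatic cells and cjPGCLCs from pre-ME with or without ActA; filled points pass both thresholds (dashed lines at 2 and -2) and open points do not. HAND2, PDGFRA, TWIST1 and SNAI2 lie between 3.72 and 8.78 in all 4 comparisons, whereas KDR lies at 1.14 and 1.82 without ActA and at -1.18 and -0.42 with it.

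PDGFRA went from 46.7 and 52.0 normalised counts in pre-ME + ActA to 4303 and 3481 in somatic cells and 5562 and 3660 in cjPGCLCs. From pre-ME - ActA, at 61.3 and 56.5, it reached 8217 and 6436 in somatic cells and 7781 and 5585 in cjPGCLCs. The rise was 78.9-fold and 94.2-fold with ActA (log2 fold change 6.30 and 6.56, SE 0.35 for both) and 121-fold and 112-fold without it (6.92 and 6.81, SE 0.34 for both). The largest edgeR adjusted p of the 4 was 1.39e-09. Its level in the 2 sorted populations overlapped under both protocols.

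HAND2, a factor of heart, limb and lateral plate mesoderm, rose from 7.51 and 11.2 normalised counts in pre-ME + ActA to 1732 and 662 in somatic cells and 1299 and 687 in cjPGCLCs. From pre-ME - ActA, at 6.48 and 6.93, it rose to 3510 and 2567 in somatic cells and 836 and 403 in cjPGCLCs. The log2 fold changes were 7.03 and 6.78 with ActA and 8.78 and 6.52 without it (SE 0.62 to 0.63, largest edgeR adjusted p = 6.07e-07). The highest levels were thus in somatic cells from pre-ME - ActA, apart from all other groups.

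TWIST1 rose from 97.6 and 46.3 normalised counts in pre-ME + ActA to 3286 and 2551 in somatic cells and 2394 and 2347 in cjPGCLCs. From pre-ME - ActA, at 37.1 and 32.7, it rose to 3927 and 3049 and to 2145 and 1459. The rises were 38.5-fold, 31.5-fold, 96.6-fold and 50.7-fold in that order (largest edgeR adjusted p = 7.57e-09).

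SNAI2 rose from between 82.2 and 87.1 normalised counts in the 4 pre-ME libraries to 1861 and 2062 in somatic cells and 1438 and 1430 in cjPGCLCs with ActA. Without ActA it reached 2481 and 2564 in somatic cells and 1122 and 1098 in cjPGCLCs. These were rises of 22.9-fold, 16.9-fold, 29.6-fold and 13.2-fold (largest edgeR adjusted p = 1.13e-09). Each of the 16 calls of these 4 genes held in all 20 fits that left out a library.

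SNAI1 and MEIS1 moved less. SNAI1 went from between 60.4 and 85.1 normalised counts in the 4 pre-ME libraries to 174.9 to 399.0 on day 4. It was called in somatic cells from pre-ME - ActA (log2 fold change 2.37, SE 0.26, edgeR adjusted p = 2.92e-06), and its log2 differences in the other 3 groups were 1.44 to 1.93. MEIS1 went from 441.0 to 921.4 in pre-ME to 1750 to 2694 on day 4 and was called in somatic cells from pre-ME + ActA (2.23, SE 0.16, edgeR adjusted p = 3.70e-08), with 1.33 to 1.92 in the others. SNAI1 in somatic cells with ActA was called too without replicate 1 of this pre-ME (2.22) or replicate 2 of these cells (2.20), and MEIS1 in cjPGCLCs with ActA without replicate 1 of this pre-ME (2.06). For both genes all 4 differences passed the adjusted p of 0.05.

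KDR was lower on day 4 than in pre-ME with ActA and higher without it, though the fall in somatic cells did not pass the test. It was at 2089 and 2027 normalised counts in somatic cells and 1188 and 1220 in cjPGCLCs with ActA, and at 1630 and 1819 and 1126 and 996 without it. Against pre-ME + ActA this was a log2 difference of -1.18 in cjPGCLCs (SE 0.19, edgeR adjusted p = 9.35e-05) and -0.42 in somatic cells (SE 0.19, edgeR adjusted p = 0.0755). Against pre-ME - ActA it was 1.14 (SE 0.19, edgeR adjusted p = 0.000208) and 1.82 (SE 0.20, edgeR adjusted p = 2.05e-06), the latter called without pre-ME - ActA cjPSCM replicate 1 (2.07). All 8 day 4 libraries lay below the 4 of cjiPSCs.

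FOXC1 was lower in somatic cells from pre-ME + ActA than in this pre-ME, at 265.6 and 181.9 against 700.9 and 529.5 normalised counts (log2 difference -1.48, SE 0.30, edgeR adjusted p = 0.000667). Its other day 4 differences did not pass the test (edgeR adjusted p from 0.0598 to 0.132). FOXC2 had 7 counts or fewer in each day 4 library and 0 in 3 of the 8, and it was not called in any day 4 comparison unless the filter on low counts or either of the cjPSCM cjiPSC libraries was left out (edgeR adjusted p from 0.0296 to 0.0477 for the latter), or, in cjPGCLCs without ActA, DESeq2 was used. FOXF1 had between 0 and 5 counts in all 20 libraries, 0 in 5 of them, and no condition stood apart, so a difference was not detectable at this depth.

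Genes of the same pathways were described from lists. In lateral plate and cardiac mesoderm, 6, 7, 6 and 7 of 9 genes tested were higher in somatic cells with ActA, somatic cells without it, cjPGCLCs with it and cjPGCLCs without it, and 0 were lower. Their median log2 fold changes were 3.74, 3.33, 3.63 and 4.44, where those of all genes lay between 0 and 0.04. GATA5, TBX20 and GATA4 were among the 4 largest each time. The GATA factors of this list are active in endoderm as well, whose markers were higher in cjPGCLCs. GATA4 had means of 1425 normalised counts in cjPGCLCs and 992 in somatic cells with ActA, and 2532 and 1987 without it. Its libraries overlapped between the populations under both protocols. GATA5 and GATA6 went the other way without ActA, at means of 264 in cjPGCLCs against 465 in somatic cells and 2094 against 3002, without overlap. With ActA they were at 178 against 165 and 2275 against 2220, with overlap. The part of endoderm in these levels was not tested. TBX20, a T-box factor of the heart, was at a mean of 3368 normalised counts in somatic cells and 3092 in cjPGCLCs against 20.02 in pre-ME + ActA. Without ActA, TBX20 was at 3109 in somatic cells and 1390 in cjPGCLCs, without overlap of the populations, against 6.51 in pre-ME - ActA. The HAND2 paralogue HAND1 rose with it, from a mean of 17.5 to 3716 and 2496 with ActA and from 10.1 to 4216 and 3749 without it.

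In the list of epithelial to mesenchymal transition and mesenchyme, 6, 9, 6 and 6 of 16 genes were higher in the same order and 0 were lower, with medians of 1.23, 2.34, 0.96 and 1.35. PRRX1, a homeobox gene of limb and lateral plate mesenchyme, was the largest of them in all 4 comparisons (log2 fold change 7.44, 8.76, 7.12 and 7.58), and the matrix gene TGFBI was among the 4 largest each time. FOXC1 and FOXC2 have another list beside them, that of paraxial and intermediate mesoderm. There 0 of 11 genes were higher in either somatic comparison and 1 in each cjPGCLC comparison, whereas 4, 0, 3 and 2 were lower. Of the 12 genes of this list in the table, 8, 7, 5 and 5 lay at or under 3 counts in both libraries of these day 4 groups. Calls in this list can thus rest on few counts. TWIST2 and SNAI3, paralogues of TWIST1 and SNAI2, had means between 0 and 3.07 normalised counts in the 10 conditions.

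Of 10 ligands and co-receptors of PDGFRA and KDR tested, 1, 4, 3 and 4 were higher on day 4 in the same order, and 1, 1, 0 and 0 lower. PGF, a ligand of the VEGF family, was higher in all 4 comparisons. VEGFA, the ligand of KDR, was higher in both cjPGCLC comparisons (log2 fold change 2.36 and 4.57) and in somatic cells from pre-ME - ActA (2.10, SE 0.28, edgeR adjusted p = 1.86e-05). In somatic cells from pre-ME + ActA its log2 difference was 1.33 (SE 0.27, edgeR adjusted p = 0.000664), short of the fold threshold. PDGFB was higher in pre-ME with ActA than without it in both media, with means of 368 against 18.3 normalised counts from TESR and 385 against 47.9 from cjPSCM. Among 8 partners of the HAND, TWIST and MEIS proteins, such as TCF3, TCF12 and PBX2, 0 were called by edgeR in any day 4 comparison.

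Markers of amnion and surface ectoderm were higher on day 4 too, with 5, 4, 5 and 5 called, VTCN1, GABRP and ISL1 among them each time. The summed level of the 6 measured went from 1144 to 1719 normalised counts in the cjPSCM pre-ME libraries to 6303 to 9402 on day 4, and ISL1 belongs to the lateral plate list as well. NANOG was lower in all 4 comparisons. Of 5 primitive streak markers tested, 3, 2, 3 and 1 were lower, CDX1 each time, and 0 were called higher by edgeR. The part of other cell types in the rise of the 10 genes was not tested.

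KDR, KIT and PDGFRA lie next to each other in this order in the RefSeq gene table of the marmoset assembly calJac240_pri. KIT, the receptor of SCF, kept means of 307 to 1202 normalised counts over the 10 conditions. It was lowest in both pre-ME groups from cjPSCM, whereas KDR was lowest in pre-ME - ActA of both media and PDGFRA was low in all 12 libraries before day 4. FOXF1 and FOXC2 also lie near each other, with MTHFSD between them, and MTHFSD had means of 277 to 710 normalised counts while FOXF1 had 5 counts or fewer in every library.

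**Figure D4:**
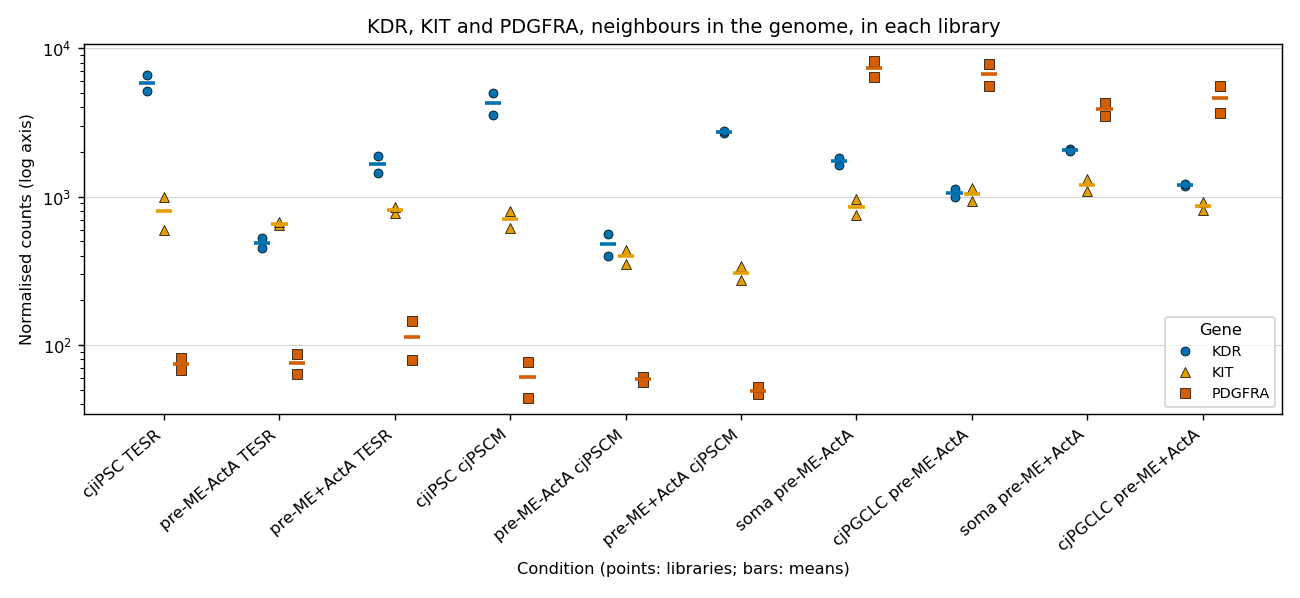
Normalised counts of the neighbouring genes KDR, KIT and PDGFRA on a log axis in each of the 20 libraries (points), with the mean of each of the 10 conditions (bars). KDR falls to means of 491 and 477 in pre-ME - ActA, KIT stays between 307 and 1202, and PDGFRA goes from at most 146 before day 4 to at least 3481 on day 4.

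The third question was how cjPGCLCs and somatic cells of the same protocol differed. Under pre-ME + ActA, none of the 10 genes was called by edgeR, against 1.58% of the genes tested; 3 had an unadjusted p under 0.05 and DESeq2 called 0. Under pre-ME - ActA 1 was called, HAND2, against 2.84%. All differences beyond the adjusted p of 0.05 were towards lower levels in cjPGCLCs except that of FOXC1.

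**Figure D5:**
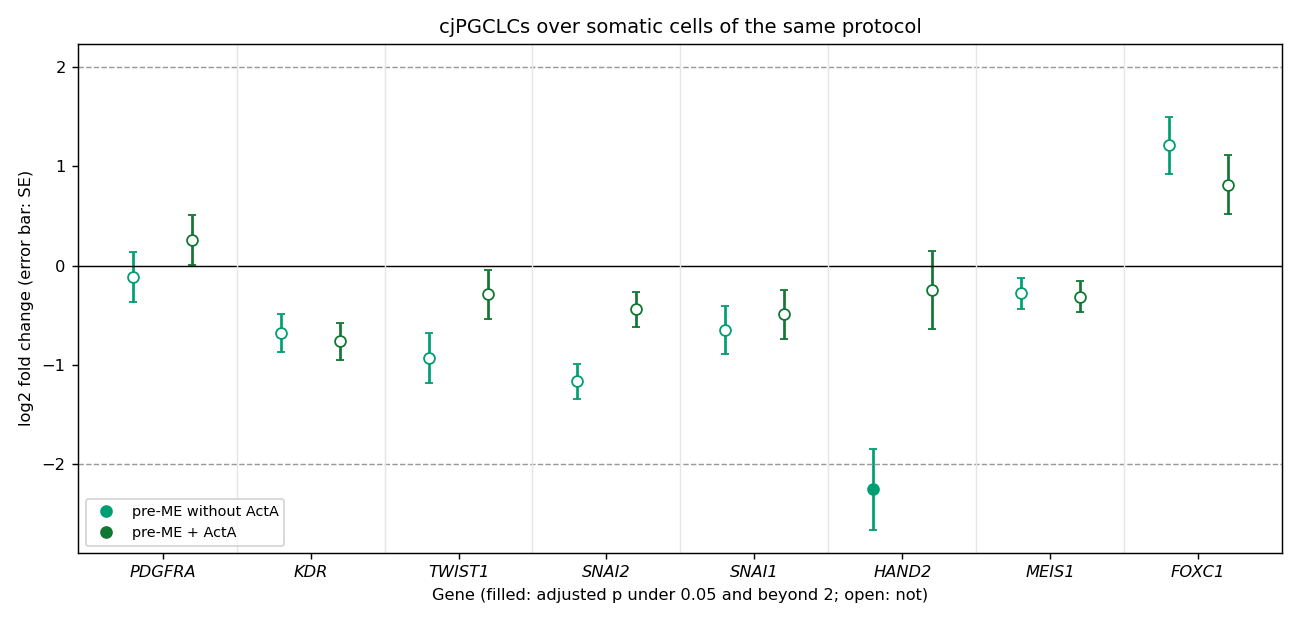
Log2 fold change of 8 genes in cjPGCLCs over somatic cells of the same protocol, with SE as error bars, for cells from pre-ME with or without ActA; filled points pass both thresholds (dashed lines at 2 and -2) and open points do not. HAND2 without ActA, at -2.26, is the one filled point, PDGFRA lies at -0.11 and 0.26, and FOXC1 lies above 0 under both protocols.

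HAND2 was 4.78-fold lower in cjPGCLCs from pre-ME - ActA, at 836 and 403 against 3510 and 2567 normalised counts (log2 fold change -2.26, SE 0.41, edgeR adjusted p = 0.00154). Without replicate 2 of these cjPGCLCs the log2 difference was -1.85 (edgeR adjusted p = 0.029), short of the fold threshold. With ActA, at 1299 and 687 against 1732 and 662, the libraries overlapped (-0.25, SE 0.39, edgeR adjusted p = 0.862). The difference between the protocols was 2.01 (SE 0.56, edgeR adjusted p = 0.278) and was not called. It was called with the replicate number as a block (2.15, edgeR adjusted p = 0.0243) and without the filter on low counts.

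SNAI2 and TWIST1 were also lower in cjPGCLCs from pre-ME - ActA, with log2 differences of -1.17 (SE 0.17, edgeR adjusted p = 0.000284) and -0.93 (SE 0.25, edgeR adjusted p = 0.0255). With ActA they were -0.44 (SE 0.17, edgeR adjusted p = 0.185) and -0.29 (SE 0.25, edgeR adjusted p = 0.687). For both genes the 2 populations did not overlap under either protocol. KDR was lower in cjPGCLCs under both, by -0.76 with ActA (SE 0.19, edgeR adjusted p = 0.0252) and -0.68 without it (SE 0.19, edgeR adjusted p = 0.0298) on the log2 scale. FOXC1 was higher in cjPGCLCs, at 847 and 608 against 309 and 330 normalised counts without ActA (log2 difference 1.21, SE 0.29, edgeR adjusted p = 0.0124). With ActA it was at 452 and 321 against 266 and 182 (0.82, SE 0.30, edgeR adjusted p = 0.155).

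PDGFRA, SNAI1 and MEIS1 did not pass the test between the populations under either protocol (edgeR adjusted p from 0.12 to 0.877). The libraries of PDGFRA overlapped. SNAI1 and MEIS1 were lower in both cjPGCLC libraries than in both somatic libraries under each protocol. For PDGFRA the log2 differences were 0.26 and -0.11 with an SE of 0.25 for both. The higher endoderm and germ cell markers of the cjPGCLCs, given above, moved with these differences, and their part was not tested. Among related genes, 0 of 16 mesenchyme genes were called with ActA by edgeR and 1 without it, COL1A1, which was lower in cjPGCLCs (-2.39, SE 0.66, edgeR adjusted p = 0.0293). VEGFA was higher in cjPGCLCs from pre-ME - ActA (2.47, SE 0.26, edgeR adjusted p = 1.24e-05).

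Somatic cells from the 2 protocols were compared last. None of the 10 genes was called by edgeR, against 0.00633% of the genes tested; 2 had an unadjusted p under 0.05 and DESeq2 called 0. HAND2 was at 1732 and 662 normalised counts with ActA against 3510 and 2567 without it (log2 difference -1.34, SE 0.39, edgeR adjusted p = 0.575). PDGFRA was at 4303 and 3481 against 8217 and 6436 (-0.91, SE 0.26, edgeR adjusted p = 0.513). For both the libraries of the protocols did not overlap. Of the differences between effects, none of the 10 genes was called for the ActA effect between media, against 0.399% of the genes tested, or for the sort between protocols, against 0.0633%; 2 had an unadjusted p under 0.05 in each, and DESeq2 called 0 in both.

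Across the means of the 10 conditions, on the scale of log2(normalised counts + 1), HAND2, PDGFRA, TWIST1 and SNAI2 correlated with each other at Pearson's r of 0.92 to 0.97 in their 6 pairs. These points share the step to day 4 and the size factors of the libraries. The genes most like each member on this scale were LRCH3 (r = 0.997), ZNF823 and TSPAN11 for TWIST1, HEATR5A (0.993), PLN and GOLGB1 for PDGFRA, and BAZ2B (0.991), ZBED6 and ACACB for HAND2. GATAD2B (0.992), SLC8A1 and ATXN3 were the nearest to SNAI2, ENTPD4 (0.983), BACH2 and CTNNB1 to SNAI1, and NPNT (0.993), CAMTA2 and LANCL2 to MEIS1. KDR was matched less closely by IRS2 (0.969), IGF2BP2 and KIRREL1, and FOXC1 by TTC39A (0.976), DCAF12 and CTSD. For FOXC2, TMEM184B (0.99), PTTG1IP and TMEM214 were nearest. These orders depend on small differences in r. With a pseudocount of 10, ZBED6 and ACACB for HAND2, GOLGB1 for PDGFRA and all 3 genes for FOXC2 (r then 0.936, 0.963 and 0.899) were no longer among the 3 nearest. With CPM in place of normalised counts, HEATR5A for PDGFRA, CTNNB1 for SNAI1, ATXN3 for SNAI2, DCAF12 for FOXC1 and TMEM214 for FOXC2 were not.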

How the data were processed

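RNA-seq of 20 libraries of 10 conditions was analysed, with 2 biological replicates each, grouped by the sample labels. The authors made poly(A) libraries, checked paired-end reads with FastQC 0.11.8, mapped them with STAR 2.7.0a to calJac4 and assigned them to genes with HTSeq 0.11. The raw gene counts were deposited without normalisation. The authors also deposited a normalised signal, in which counts are scaled by DESeq2 size factors. The annotation release and the strand setting are not given in the sources used here, so overlapping, antisense and near-identical genes can share reads. The table holds 25102 genes, and 2 summary lines for reads outside genes (10.6% to 23.2% of the counted reads) and ambiguous reads were left out. Of the gene names, 21267 and all 10 members matched a RefSeq table of calJac240_pri, used for names and neighbours only. No sequence table was used.

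The raw counts of all 20 libraries entered a single edgeR 4.0.16 fit (R 4.3.3, TMM factors, quasi-likelihood test) in which each condition had its own mean. It had 10 residual degrees of freedom, and the common dispersion was 0.0203. The filter by condition left 15797 genes. Adjustment over these genes (Benjamini-Hochberg) was made separately for each of 16 comparisons and 2 differences of differences, the latter called at the adjusted p alone. The labels call the replicates biological but do not say how they were separated, so p-values measure the spread between these samples of 1 line. Alternatives were DESeq2 1.42.0, its size factors in edgeR, no filter beyond 1 count, the replicate number as a block, the libraries of a comparison alone and each library left out. The fits were tested on simulated data. Patterns were compared as log2(normalised counts + 1), with a pseudocount of 10 and CPM as alternatives. Where a group had 0 counts, folds were computed against 3 counts per library, and where it had 1 to 3, an exact 95% counting interval is given.

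The members, the gene lists and the tests were chosen with earlier results of these data known. All members are reported, whatever their values. From each list, genes were named from among the called ones with the largest fold change and no overlap of libraries, up to 4 per comparison (some list genes are not reported here), and for each tested member the 3 most similar genes with at least 20 normalised counts on average. Tables and plots used Python 3.11.15, pandas 2.3.3 and matplotlib 3.10.9.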

Additional observations from a re-analysis of the deposited data

How the results depend on the processing

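Over 4061 values of single members under the alternatives, 3994 kept their side of the thresholds, 43 lost a call, 24 gained one and 0 called values changed direction; 70 values changed sign, none of them past the adjusted p before or after. The rises of HAND2, PDGFRA, TWIST1 and SNAI2 on day 4 and the KDR calls were kept in all alternatives run. The number of members called went from 2 to 1 between the media in cjiPSCs with DESeq2 and with the libraries of the comparison alone, from 2 to 1 in pre-ME + ActA over cjiPSCs in TESR with the replicate block, from 1 to 0 in pre-ME + ActA over cjiPSCs in cjPSCM, from 3 to 2 in pre-ME - ActA over the same (HAND2) and from 2 to 1 for ActA in cjPSCM pre-ME with the libraries of the comparison alone. It went from 0 to 1 for the ActA effect between media without the filter (SNAI2) and with the libraries of the comparison alone (KDR), and from 0 to 1 for the sort between protocols without the filter (HAND2), with the replicate block (HAND2) and with the libraries of the comparison alone (SNAI2). For day 4 cells over pre-ME, leaving out the filter moved 5 to 6 in both somatic groups and 4 to 5 in both cjPGCLC groups (FOXC2). DESeq2 also moved 4 to 5 in cjPGCLCs from pre-ME - ActA (FOXC2). The causes were not tested.

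With 1 library left out, the members called ranged from 0 to 2 between media in cjiPSCs and in pre-ME + ActA over cjiPSCs in TESR, from 1 to 3 in pre-ME - ActA over cjiPSCs in TESR, from 0 to 1 and 2 to 3 for the same in cjPSCM, from 1 to 2 for ActA in cjPSCM pre-ME, from 0 to 1 between media in pre-ME + ActA, from 5 to 6 in both somatic groups over pre-ME, from 4 to 5 in both cjPGCLC groups over pre-ME, from 0 to 1 for cjPGCLCs over somatic cells without ActA and from 0 to 1 for the ActA effect between media. Where an arm kept 1 library, it was assumed to vary like the other groups. The labels do not say what a shared replicate number marks, and with 2 pairs in each comparison the numbers were not taken to pair the libraries: replicate differences of the groups compared correlated at -0.19 to 0.23 over 16 comparisons, over 0.1 in 4 and under -0.1 in 3. The block changed no other count of members called. In the 3 comparisons under -0.1, a crossed block, chosen after seeing the data, gave 1, 3 and 5 members called, as without it. Over all genes, the number called moved by more than 1.5 times with the libraries of the comparison alone, from 483 to 107 in pre-ME + ActA over cjiPSCs in cjPSCM and from 832 to 342 in pre-ME - ActA, where the higher share went from 40.0% to 18.7%. For the ActA effect between media, 63 genes became 342 with DESeq2, 735 without the filter and 2513 with the libraries of the comparison alone, and for the sort between protocols 10 became 94, 269 and 125, and 25 with the block. For ActA in somatic cells 1 became 4, 10 and 5. Without 1 library these counts ranged from 282 to 1351, 456 to 1884, 7 to 868, 1 to 100 and 0 to 4, and moved from 334 to 182 (ActA, cjPSCM pre-ME), 316 to 208 (ActA, TESR pre-ME) and 249 to as few as 109 (cjPGCLCs over somatic cells, with ActA). The depth limits FOXF1, FOXC2 and, before day 4, HAND2.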
